A study of Mus musculus with 48 samples.

Results

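The lysyl oxidase family consists of 5 genes in the mouse, Lox, Loxl1, Loxl2, Loxl3 and Loxl4, and its enzymes are the target of β-aminopropionitrile (BAPN), the agent given to these mice. The members were taken by gene symbol from the 18782 genes of the count table, and all 5 were among the 14431 genes that passed the filter on low counts. Strand-specific mRNA libraries had been made from the thoracic aorta (ascending aorta, arch and proximal descending aorta) of 48 wild-type C57BL/6J mice, 1 library per mouse. The study's methods name lesioned segments of it as the source of the RNA. They do not state which stretch was taken from aortas without a lesion. Treated mice drank water with 0.4% BAPN for 28 days, starting at an age of 3 weeks, and controls drank normal water. The groups were MaCon (male controls, n = 10), MaNonAD (BAPN-treated males without a detectable aortic lesion, n = 4), MaAAD (BAPN-treated males with aortic dissection or aneurysm, n = 7), FeCon (female controls, n = 10), FeNonAD (n = 8) and FeAAD (n = 9). NonAD and AAD mice received the same treatment and were separated by outcome at its end, and mice that died of rupture before then are not among the libraries.

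Lysyl oxidases are secreted, copper-dependent amine oxidases that convert lysine side chains of elastin and collagen into aldehydes, which then condense into the cross-links that hold elastic lamellae and collagen fibres together. BAPN binds the active site and blocks this step, so the wall of a growing aorta is laid down with poorly linked fibres. BAPN acts on the enzyme and not on its mRNA, and the data here are mRNA levels. Lox and Loxl1 carry a pro-peptide that is cut off outside the cell, and mice lacking Lox are known for aortic aneurysm and rupture, whereas Loxl2, Loxl3 and Loxl4 carry scavenger receptor domains in front of the catalytic domain.

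The 5 genes share the copper site of the catalytic domain, which is where the family can be recognised in the sequence. The stretch of 36 coding bases over this site is shown for Loxl1 to Loxl4, 5′ to 3′ on the sense strand, because it is the part of the target that the members have in common; the sequence of Lox is not shown here. It was read from the GENCODE M21 transcripts (GRCm38), and the capitals mark the 4 histidine codons of the motif.
Loxl1: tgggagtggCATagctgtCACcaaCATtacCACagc
Loxl2: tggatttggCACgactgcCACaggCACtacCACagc
Loxl3: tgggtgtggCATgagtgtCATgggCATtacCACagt
Loxl4: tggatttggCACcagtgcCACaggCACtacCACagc
Loxl2 and Loxl4 had the same base at 34 of the 36 positions, and Loxl1 and Loxl4 at 24. Over the last 200 residues of the translated open reading frames, which hold the catalytic domain, Lox and Loxl1 were 75.0% identical, Loxl2, Loxl3 and Loxl4 were 64.5% to 68.8% identical to each other, and identity across these subfamilies was 39.7% to 45.9%. Loxl2 was the one member whose deposited counts were not whole numbers, in all 48 libraries, so some of its reads were divided between features by estimation. The other 4 members had whole counts in all libraries.

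Library totals ranged from 13548000 to 17281273 counts, and the members' counts ranged from 119 for Loxl4 to 27246 for Lox in a library. Smooth muscle markers (Myh11, Acta2, Tagln and 5 others) summed to 11830 to 60210 CPM (counts relative to the TMM-scaled library total) per library, and none was at 0 throughout a group. The summed Y-linked counts matched the labelled sex in all libraries. Some libraries stood apart in markers of other cells. MaAAD1 had the highest white fat sum (9016 CPM), MaAAD7 and FeAAD5 had neutrophil sums of 241.5 and 888.4 CPM, and FeNonAD8 had the highest macrophage sum of its group (672.3 CPM). FeAAD9 had a neutrophil sum of 202 CPM and the lowest fibroblast and endothelial sums of all libraries (1987 and 434.6 CPM). Among the controls, FeCon10 had the highest heart muscle sum (771.5 CPM, group median 138.6) and MaCon2 the highest T cell sum (182.8 CPM, group median 11.48).

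In the control aorta the family was made up mostly of Loxl1 and Lox. Scaled per kilobase of exon, so that genes of different length can be compared, the mean level in MaCon was 201.1 ± 36.2 CPM per kb for Loxl1 (SD, n = 10), 83.1 ± 22.4 for Lox, 26.25 ± 3.4 for Loxl3, 15.9 ± 4.5 for Loxl2 and 2.54 ± 0.51 for Loxl4. FeCon had the same order. The level of Loxl1 was above that of Lox in each of the 20 control libraries, with Lox to Loxl1 ratios of 0.129 to 0.604 in MaCon and 0.204 to 0.697 in FeCon. The order of mean levels was the same in all 6 groups, and in FeAAD the means of Lox (216.6 ± 91.9) and Loxl1 (219.3 ± 33.3) differed by less than either SD. Loxl3 and Loxl2 were at 40.3 ± 7.3 and 32.4 ± 10.5 in MaAAD.

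**Figure D1:**
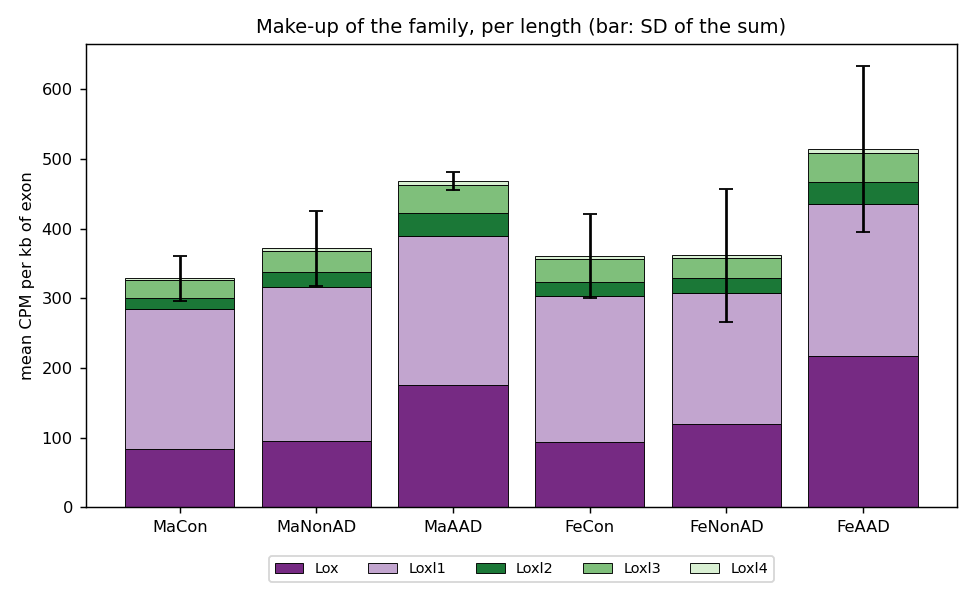
Mean level of each member per kilobase of exon (CPM per kb, stacked) in the 6 groups, with the SD of the summed level as the error bar. The summed level is 328.9 CPM per kb in MaCon and 468.6 in MaAAD, 361.0 in FeCon and 514.3 in FeAAD, and most of the added height is Lox.

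AAD against Con addresses whether the enzymes that BAPN blocks were raised or lowered at the mRNA level in aortas with a lesion. In MaAAD 4 of the 5 members were higher than in MaCon (Lox, Loxl2, Loxl3 and Loxl4), where 18.9% of the genes tested were higher and 16.1% lower. In FeAAD 3 of the 5 were higher than in FeCon (Lox, Loxl2 and Loxl4), against 23.8% of genes higher and 20.6% lower. No member was lower in either comparison, and Loxl1 passed in neither. The median log2 fold change of the 5 members was 1.03 in males and 0.61 in females, beside -0.03 and 0.00127 over all genes tested. With the additional requirement of a log2 fold change of at least 1, Lox, Loxl2 and Loxl4 counted in males (9.18% of genes) and Lox in females (9.94%). Loxl2 in males lay close to that limit, at 0.918 to 1.17 with 1 library left out. In bulk tissue, a change in the number of cells that make an enzyme and a change in the mRNA per cell cannot be told apart.

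Lox, the founding member and the main elastin and collagen cross-linking enzyme of large arteries, had levels of 150.6 CPM (lowest), 407.8 (median) and 505.3 (highest) in MaCon. In MaAAD they were 702.5, 870.1 and 936.1 CPM. All 7 MaAAD libraries were above all 10 MaCon libraries, and the log2 fold change was 1.08 (adjusted p = 0.000991, SE 0.26). The share of all genes with no overlap between these groups was not counted. In FeCon the levels of Lox were 216.7, 467.4 and 577.7 CPM, and in FeAAD 530.5, 1030 and 1635. The female groups overlapped, with 7 of 9 FeAAD libraries above the highest control, and the log2 fold change was 1.21 (adjusted p = 0.000101, SE 0.25). FeAAD6, FeAAD7 and FeAAD9 were the highest of all 48 libraries, at 1633, 1635 and 1358 CPM. Without FeAAD9, MaAAD1, MaAAD7, FeAAD5 and FeNonAD8, the log2 fold change was 1.13 (adjusted p = 0.000431).

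**Figure D2:**
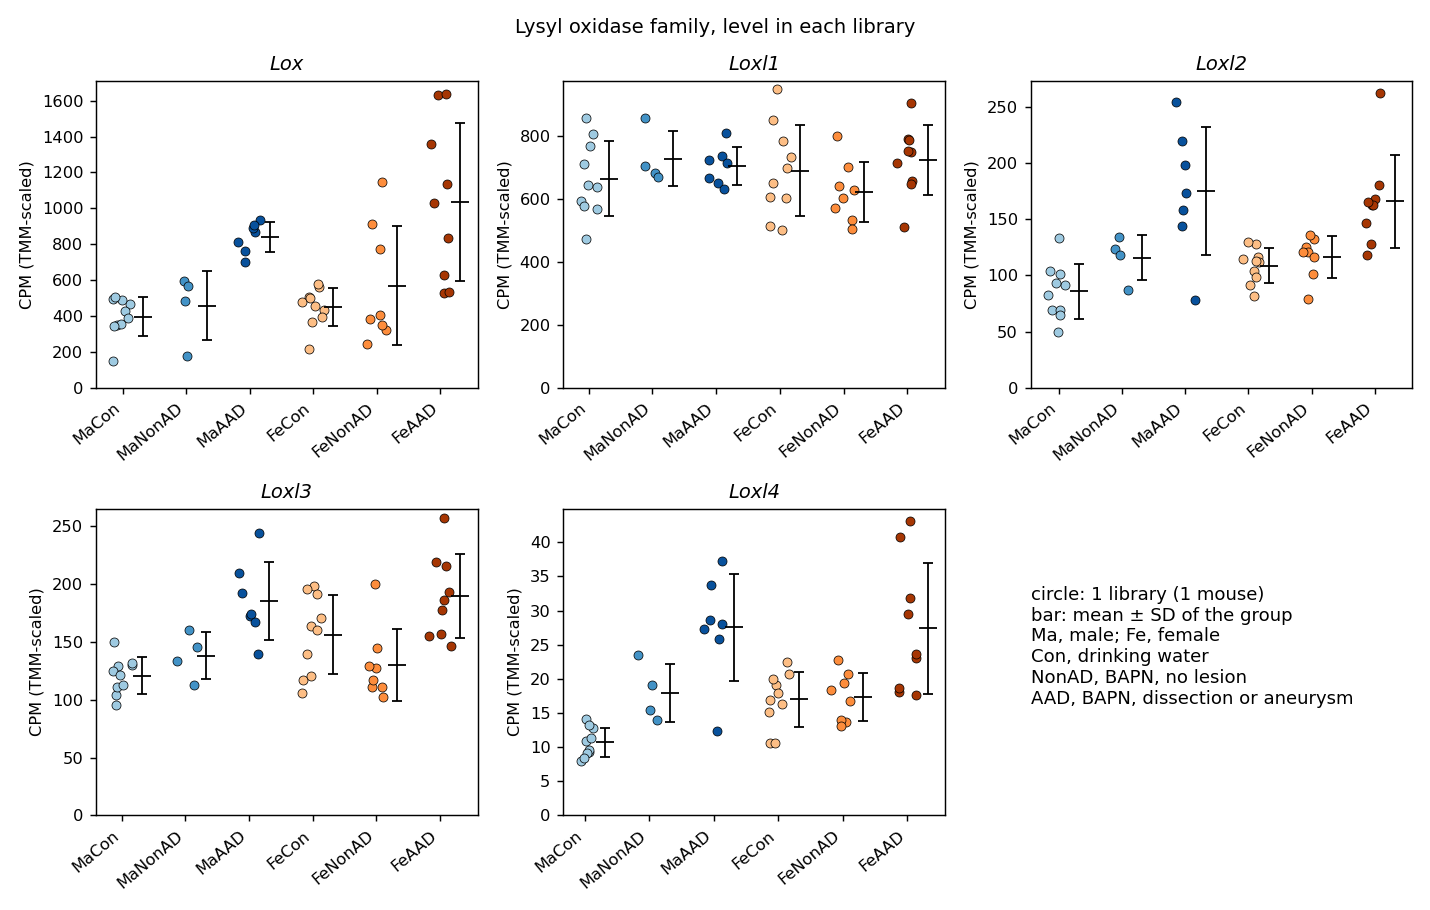
Level of each member (TMM-scaled CPM) in each of the 48 libraries, by group, with the mean and SD of the group beside the points. MaAAD lies wholly above MaCon for Lox, FeNonAD is split for Lox with 3 libraries at 773.6 to 1145 CPM, and Loxl1 covers a similar range in all groups.

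Loxl4, the least abundant member, had levels of 7.90, 10.25 and 14.1 CPM (lowest, median and highest) in MaCon and 12.3, 28.0 and 37.2 CPM in MaAAD. It had the highest log2 fold change of the family in males, 1.36 (adjusted p = 1.48e-07, SE 0.18), and 6 of 7 MaAAD libraries were above all MaCon libraries. The exception was MaAAD1, the library with the high fat marker sum, which was also the lowest of its group for Loxl2. In FeCon the levels of Loxl4 were 10.65, 17.45 and 22.5 CPM and in FeAAD 17.6, 23.65 and 43.1 CPM, a log2 fold change of 0.69 (adjusted p = 0.00104, SE 0.17), with 6 of 9 FeAAD libraries above the highest control.

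Loxl2, which acts on collagen IV of basement membranes among other substrates, had levels of 49.2, 86.9 and 133.3 CPM in MaCon and 77.9, 173.5 and 254.0 CPM in MaAAD. Its log2 fold change was 1.03 (adjusted p = 2.78e-06, SE 0.16), with 6 of 7 MaAAD libraries above the highest control. In females the levels were 81.8, 112.1 and 130.2 CPM in FeCon and 118.6, 162.6 and 262.4 CPM in FeAAD. The log2 fold change was 0.61 (adjusted p = 0.00129, SE 0.16), and 7 of 9 FeAAD libraries were above the highest control.

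Loxl3 had levels of 95.03, 123.1 and 150.1 CPM in MaCon and 139.0, 173.7 and 243.7 CPM in MaAAD, a log2 fold change of 0.62 (adjusted p = 0.000212, SE 0.13). In FeCon the levels were 105.7, 161.6 and 198.5 CPM and in FeAAD 146.4, 185.8 and 256.7 CPM. The female groups overlapped widely, with 3 of 9 FeAAD libraries above the highest control, and the log2 fold change of 0.28 (95% interval 0.03 to 0.53) had an adjusted p of 0.0619. This value lay close to the threshold. Leaving out FeCon1, FeCon7, FeCon9, FeAAD3, FeAAD4 or FeAAD8 brought it to between 0.0318 and 0.0428.

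Loxl1, which is known for its part in elastic fibre renewal, had levels of 473.7, 640.7 and 856.4 CPM in MaCon and 632.3, 715.0 and 807.2 CPM in MaAAD. In females they were 500.1, 674.5 and 949.8 CPM in FeCon and 511.7, 748.7 and 902.7 CPM in FeAAD. No AAD library of either sex lay above the highest control of its sex. The log2 fold changes were 0.09 in males (95% interval -0.15 to 0.32, adjusted p = 0.604) and 0.07 in females (-0.15 to 0.29, adjusted p = 0.642), so the intervals leave out a rise of the size measured for Lox. The Lox to Loxl1 ratio per length was 0.601 to 0.994 in MaAAD and 0.4931 to 1.53 in FeAAD, beside 0.129 to 0.604 and 0.204 to 0.697 in the controls. The difference between the 2 genes' responses was not tested.

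**Figure D3:**
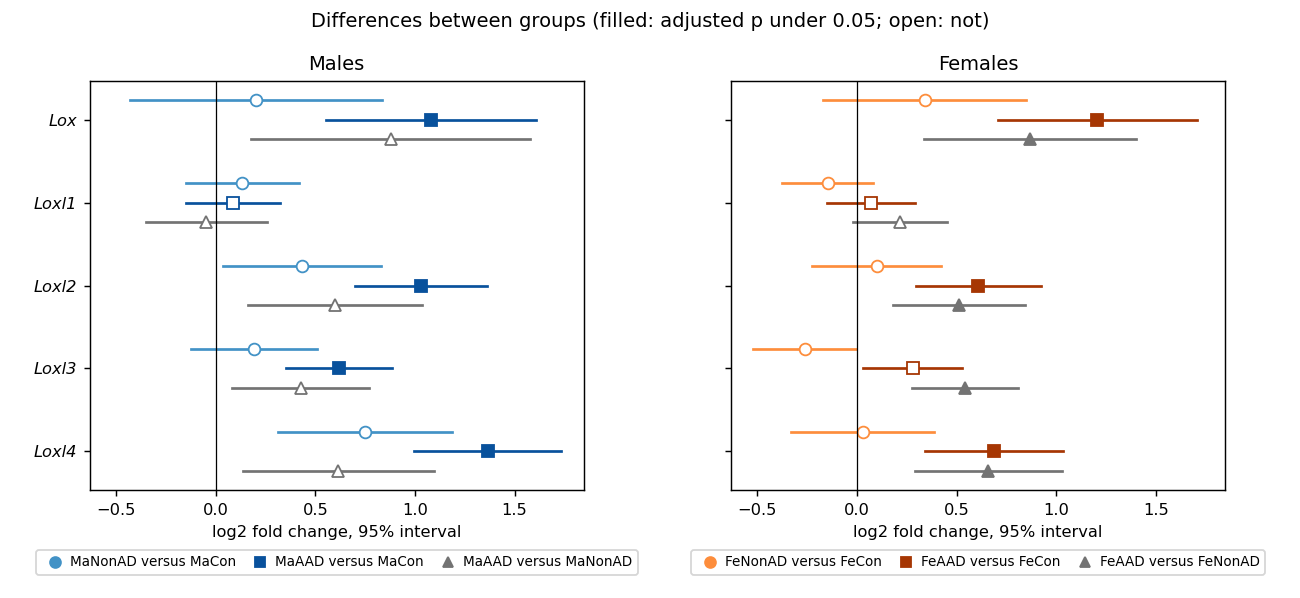
Log2 fold change (points) with its 95% interval (lines) for each member in the 3 within-sex comparisons of males and of females; filled symbols have an adjusted p under 0.05. The values of Lox, Loxl2 and Loxl4 for AAD against Con lie between 0.61 and 1.36 and are filled in both sexes, and those of Loxl1 stay near 0 and are open.

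NonAD against Con addresses the enzymes in mice that drank BAPN for the same time and had no lesion. No member passed the test in either sex. In MaNonAD 0.443% of genes were higher and 0.18% lower than in MaCon. With edgeR 2 members had an unadjusted p under 0.05 (Loxl2 and Loxl4), as did 1734 of the 14431 genes tested. In FeNonAD 6.87% of genes were higher and 7.66% lower than in FeCon. There 1 member had an unadjusted p under 0.05 (Loxl3), as did 4172 of the 14431 genes. DESeq2 also called 0 members in both comparisons. The groups of 4 and 8 mice leave wide intervals, so these values do not show that the levels were equal.

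The 4 MaNonAD libraries had Lox levels of 596.4, 179.3, 486.2 and 566.4 CPM, of which 2 were above the highest MaCon library and 1 was below all but 1 of them. The log2 fold change was 0.20 (95% interval -0.43 to 0.84, adjusted p = 0.865), and it was 0.496 without MaNonAD2 and 0.0483 without MaNonAD1. Loxl4 levels in MaNonAD were 23.5, 15.4, 13.9 and 19.1 CPM, 3 of them above all MaCon libraries. The log2 fold change of Loxl4 was 0.75 (SE 0.22, unadjusted p = 0.00119, adjusted p = 0.101). Without MaCon3 its adjusted p was 0.0497, and in a fit of these 2 groups alone it was 0.032. The other log2 fold changes in MaNonAD were 0.43 for Loxl2 (adjusted p = 0.346), 0.19 for Loxl3 (0.69) and 0.13 for Loxl1 (0.785).

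In FeNonAD the level of Lox fell into separate sets. FeNonAD5, FeNonAD6 and FeNonAD8 had 773.6, 914.7 and 1145 CPM, above all FeCon libraries, and the other 5 had 244.0 to 403.6 CPM. The group's log2 fold change of 0.34 (95% interval -0.17 to 0.85, adjusted p = 0.393) is therefore a mean over unlike libraries, and it was 0.112 without FeNonAD8, 0.214 without FeNonAD6 and 0.452 without FeNonAD1. Loxl3 levels in FeNonAD were 102.1 CPM (lowest), 122.3 (median) and 199.8 (highest), and its log2 fold change was -0.26 (adjusted p = 0.166, SE 0.13). The highest value was FeNonAD8, and without that library the log2 fold change was -0.38 with an adjusted p of 0.0389. Loxl1, Loxl2 and Loxl4 had log2 fold changes of -0.15, 0.10 and 0.03 in FeNonAD, with adjusted p of 0.407 to 0.933.

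AAD against NonAD compares mice with and without a lesion under the same treatment. In females 4 of the 5 members were higher in FeAAD than in FeNonAD, against 13.2% of genes higher and 5% lower. The log2 fold changes were 0.87 for Lox (adjusted p = 0.0175, SE 0.26), 0.66 for Loxl4 (adjusted p = 0.00879, SE 0.18), 0.54 for Loxl3 (adjusted p = 0.00278, SE 0.13) and 0.51 for Loxl2 (adjusted p = 0.0258, SE 0.17). All groups overlapped. The value of Lox had an adjusted p of 0.101 in a fit of these 2 groups alone, and that of Loxl2 rose to 0.0652 without FeNonAD1 and 0.0686 without FeAAD2. Loxl1 had a log2 fold change of 0.22 (adjusted p = 0.193). Cell markers moved between these groups too, with all 8 macrophage, all 8 cycling and 6 of 7 neutrophil markers higher and 6 of 8 smooth muscle markers lower in FeAAD. Cartilage markers were higher in 5 of 8 and B cell markers in 4 of 7, and the part of these cell types in these differences was not tested. Without MaAAD1, MaAAD7, FeAAD5, FeNonAD8 and FeAAD9 the same 4 members passed (0.55 to 1.01), and with FeAAD9 kept Loxl1 passed as well (0.33, adjusted p = 0.0489).

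In males no member passed between MaAAD and MaNonAD, where 0.388% of genes were higher and 0.0208% lower. With edgeR 4 members and 2694 of the 14431 genes tested had an unadjusted p under 0.05, and DESeq2 called 0 members. The log2 fold changes were near those of females, 0.88 for Lox (adjusted p = 0.15), 0.61 for Loxl4 (0.142), 0.60 for Loxl2 (0.113) and 0.43 for Loxl3 (0.156), with -0.05 for Loxl1 (0.899). All 7 MaAAD libraries were above all 4 MaNonAD libraries for Lox. How many of all genes were separated in this way between these small groups was not counted. Of the cell markers, 2 of 8 macrophage markers were higher in MaAAD and no other marker passed, with median log2 fold changes of 1.39 for macrophage, 1.72 for cycling and -0.56 for smooth muscle markers, and their part in these values was not tested. Without MaAAD1 the adjusted p was 0.021 for Loxl2 and 0.0322 for Loxl4, so that library decided both calls. The number of genes called in this comparison ranged from 0 to 1342 with 1 library left out, and 59 were called with all libraries.

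Averaged over the sexes with equal weight, 0 members passed for NonAD against Con (5.59% of genes higher), and DESeq2 called 0. With edgeR 2 members and 3809 of the 14431 genes tested had an unadjusted p under 0.05. Loxl4 came nearest with a log2 fold change of 0.39 (adjusted p = 0.0637). Loxl4 passed there without any 1 of MaCon3, MaCon5, FeCon1 or FeNonAD6 (adjusted p 0.0391 to 0.0497), with upper-quartile scaling (0.43, adjusted p = 0.0353) and in a fit of the compared groups alone (0.39, adjusted p = 0.0216). It also passed without MaAAD1, MaAAD7, FeAAD5, FeNonAD8 and FeAAD9 (0.37, adjusted p = 0.0315). Loxl2 passed with the level of the clock gene Arntl as a covariate, chosen after seeing the data (0.42, adjusted p = 0.03). All members but Loxl1 were higher for AAD against Con (26.5% of genes higher), with log2 fold changes of 1.14 for Lox, 1.03 for Loxl4, 0.82 for Loxl2 and 0.45 for Loxl3. The same 4 members were higher for AAD against NonAD (16% of genes higher), by 0.87, 0.64, 0.55 and 0.48.

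The sexes were also compared in the controls. Loxl4 was lower in MaCon than in FeCon, with a log2 fold change of -0.67 (adjusted p = 0.00667, SE 0.17) and 5 of 10 MaCon libraries below all FeCon libraries. Loxl3 was also lower in MaCon, by -0.37 on the log2 scale (adjusted p = 0.0328, SE 0.12), a call that was lost without any 1 of MaCon2, MaCon4, MaCon6, FeCon1, FeCon5, FeCon7, FeCon9 or FeCon10 (adjusted p 0.0501 to 0.0693) and with upper-quartile scaling (adjusted p = 0.0551). Among all genes 7.9% were lower in MaCon. Lox, Loxl1 and Loxl2 did not pass (-0.18, -0.06 and -0.34), although Loxl2 did without MaCon3 (-0.44, adjusted p = 0.0348). Loxl2 also passed with the level of Arntl as a covariate (-0.43, adjusted p = 0.0402). Between the sexes no member passed in NonAD or AAD mice, where 0.0624% and 0.0901% of genes did by edgeR. The intervals were wide (-0.98 to 0.36 for Lox in NonAD). With edgeR 0 members had an unadjusted p under 0.05, beside 934 of all genes in NonAD and 321 in AAD. No alternative was run for these comparisons. Loxl4 levels in MaAAD and FeAAD averaged 27.55 ± 7.8 and 27.4 ± 9.6 CPM.

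The difference between the sexes in each response was tested directly, and no member passed with all libraries. The response of Loxl4 was larger in males by 0.68 on the log2 scale for AAD (SE 0.25, unadjusted p = 0.0101, adjusted p = 0.163) and by 0.72 for NonAD (SE 0.28, unadjusted p = 0.0143, adjusted p = 0.259). Without MaAAD1 the AAD value was 0.81 and passed, with an adjusted p of 0.049982, and without MaAAD1, MaAAD7, FeAAD5, FeNonAD8 and FeAAD9 it was 0.91 (adjusted p = 0.0238). For Lox the differences were -0.12 and -0.14, and they changed sign to 0.54 and 0.55 with the level of Arntl, a clock gene described with the within-group values, as a covariate, values given with no test. Over all genes, 1.34% and 0.416% passed for AAD and NonAD. For the step from NonAD to AAD 0 genes passed (0%) by edgeR and 150 had an unadjusted p under 0.05, none of them a member.

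Members also varied between mice of the same group. On deviations of log2(CPM + 1) from the group mean over the 48 libraries, 5 of 10 pairs of members passed a two-sided permutation test within groups with adjustment over the 10 pairs. The share of pairs of all genes that would pass was not computed. The count is therefore no measure of a relation particular to the family. Loxl2 and Loxl4 had the highest Pearson's r (0.56, Spearman's rho 0.47, p = 0.0003, adjusted p = 0.0015), and r was 0.54 without the 2 libraries farthest from the median. Lox correlated with Loxl3 (r = 0.50, rho 0.48, p = 0.00046, adjusted p = 0.00153, permutation test; 0.55 without the 2 farthest) and with Loxl2 (r = 0.48, rho 0.46, p = 4e-05, adjusted p = 0.0004, permutation test; 0.38 without the 2 farthest). Loxl3 also correlated with Loxl1 (r = 0.51, rho 0.43, p = 0.00084, adjusted p = 0.0021, permutation test; 0.56 without the 2 farthest) and with Loxl2 (r = 0.38, rho 0.49, p = 0.0061, adjusted p = 0.0122, permutation test; 0.47 without the 2 farthest). Lox and Loxl1, the most abundant pair, had an r of 0.04 (rho 0.02, permutation p = 0.79). With FeNonAD left out, because Lox was split there, r was 0.46 for Lox with Loxl2, 0.46 for Lox with Loxl3 and 0.57 for Loxl2 with Loxl4. Loxl3 and Loxl4 came next by size and did not pass (r = 0.30, rho 0.31, p = 0.0536, adjusted p = 0.0893, permutation test).

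**Figure D4:**
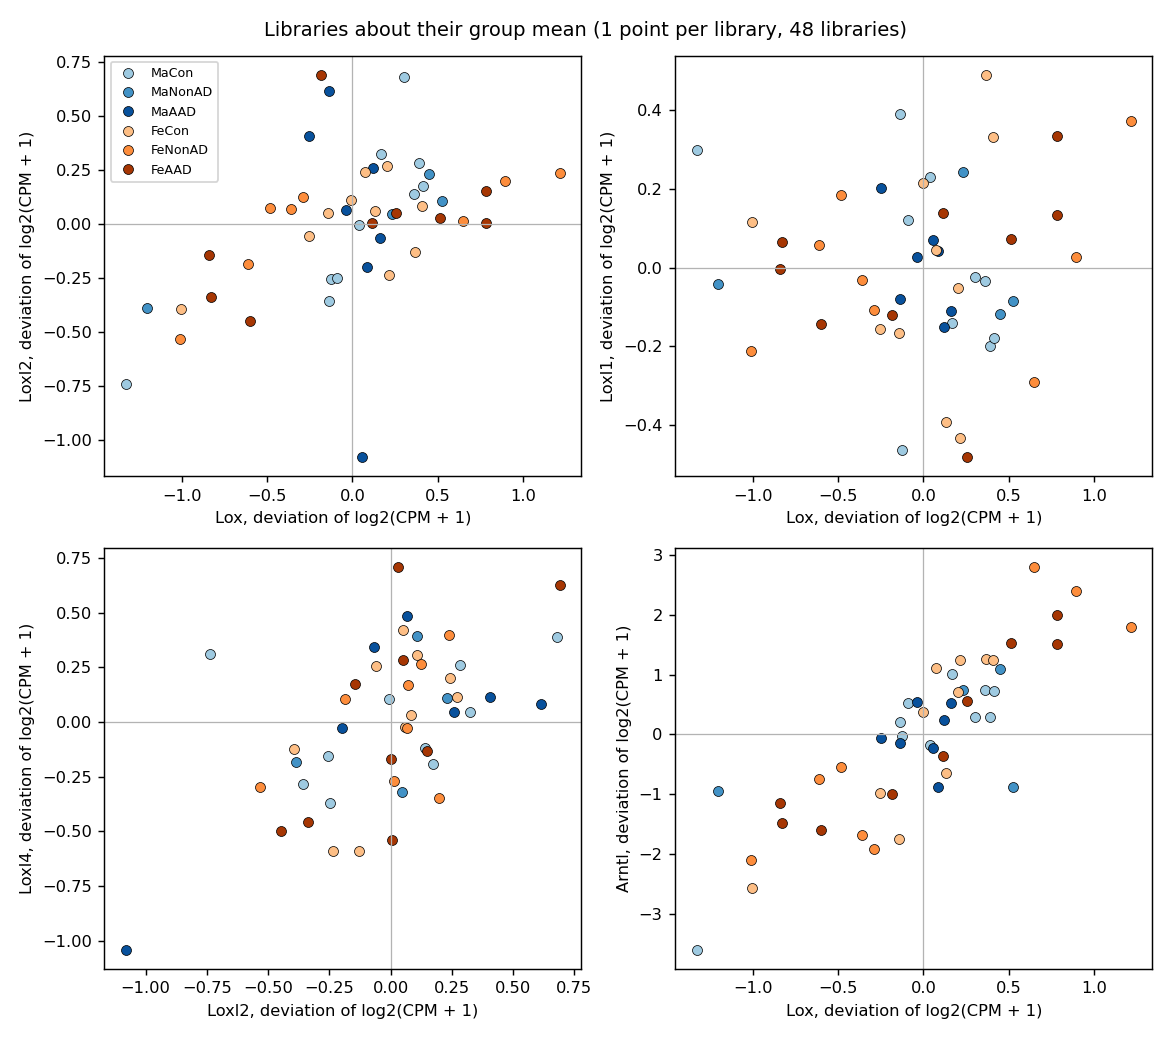
Deviations of log2(CPM + 1) from the group mean for 4 pairs of genes, 1 point per library (48 libraries, coloured by group). Loxl2 and Loxl4 rise together (r = 0.56), Lox and Loxl1 show no common course (r = 0.04), and Lox and Arntl have an r of 0.84 over all groups and of 0.09 over the 7 MaAAD libraries alone.

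The genes whose deviations were most like those of each member were listed by Pearson's r over the same 48 libraries, as a description, since all genes share the library and its depth. For Lox they were Map4k4 (r = 0.86), Clock (0.85), Arntl (0.84), Crybg3 (0.84) and Adamts4 (0.83). Clock and Arntl encode the partner transcription factors of the circadian clock. For Loxl1 they were Gp1bb, Npdc1, Chpf, Itm2c and Cnn2 (0.84 to 0.88), for Loxl2 Ddb1, Slc38a1, Igf2r, Adam9 and Dcaf7 (0.77 to 0.80), for Loxl3 Ptpn1, P3h1, Srpx2, Prkcd and Apobec1 (0.68 to 0.76), and for Loxl4 Arf3, Gm42226, Fads3, Rad23b and LOC115489417 (0.73 to 0.79).

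Arntl differed between groups as well as within them. In MaCon 9 of 10 libraries had 27.2 to 63.1 CPM of Arntl, and MaCon5, the library with the lowest Lox, had 1.62 CPM. The MaNonAD libraries had 2.04 to 11.4 CPM and the MaAAD libraries 2.40 to 8.04 CPM, a log2 fold change of -2.78 for MaAAD against MaCon (adjusted p = 0.00236, SE 0.73). In FeNonAD, the libraries FeNonAD5, FeNonAD6 and FeNonAD8, which were high in Lox, had 63.8, 48.25 and 31.2 CPM of Arntl, and the other 5 had 1.18 to 5.37 CPM. In FeAAD the 3 libraries highest in Lox, FeAAD6, FeAAD7 and FeAAD9, were also the highest in Arntl, at 39.6, 27.95 and 28.6 CPM. The relation was not alike in all groups. Given as a description, Pearson's r of Lox with Arntl was 0.87 over the 10 FeCon libraries, 0.95 over the 9 FeAAD libraries and 0.93 over the 10 MaCon libraries, but 0.47 in MaCon without MaCon5 and 0.09 over the 7 MaAAD libraries. In MaNonAD the library highest in Lox, MaNonAD1, had 2.156 CPM of Arntl, near the lowest of its group. In the treated males Arntl was thus low throughout, and in MaAAD Lox was high.

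A fit with the Arntl level as a covariate gave other values for Lox in NonAD. Arntl was picked from all genes because it followed Lox, so that the covariate narrows the spread of Lox by construction, and the values of this fit are a description in both sexes with no test. The log2 fold change of Lox was then 1.07 in MaNonAD and 0.52 in FeNonAD against Con, where the fit without Arntl gave 0.20 and 0.34. For AAD against Con it became 1.94 in males and 1.40 in females, and for MaAAD against MaNonAD it was 0.87, close to the value without the covariate. In MaCon against FeCon it was -0.48, beside -0.18 without Arntl. Since Arntl hardly overlaps between MaCon and the treated males, its level and the treatment cannot be told apart in males, and the adjusted male values rest on 1 slope fitted to all groups, while Lox hardly followed Arntl within MaAAD. The study's methods put stool collection, done just before the mice were killed, in a fixed part of the morning. No clock time per library was used here, and the part of the time of day in the levels of Lox was not tested.

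The genes around the enzymes were read by role, from 7 lists of genes known to act with them. The substrates (elastin and the fibrillar and basement membrane collagens, 11 genes) were higher in 8 of 11 in MaAAD, 9 of 11 in FeAAD and 6 of 11 in FeNonAD, and none was lower. Over all genes tested the shares higher were 18.9%, 23.8% and 6.87% in the same comparisons, which are the background for all 7 lists. In MaNonAD 0 of 11 substrates passed, where 0.443% of all genes were higher. Eln, the gene for elastin, had mean levels of 12000 ± 2742 CPM in MaCon (SD, n = 10), 22210 ± 7195 in MaNonAD and 27980 ± 8522 in MaAAD. In females the means were 10940 ± 2466 CPM in FeCon, 20310 ± 10210 in FeNonAD and 29240 ± 10760 in FeAAD. Its log2 fold change was 1.22 in MaAAD (adjusted p = 6.52e-05), 1.42 in FeAAD (adjusted p = 1.97e-06) and 0.89 in FeNonAD (adjusted p = 0.00729), and 0.89 in MaNonAD did not pass (adjusted p = 0.14). Col1a1 rose by 1.14 and 1.28 in MaAAD and FeAAD and by 0.64 in FeNonAD. Col11a1 and Col2a1, collagens of cartilage, had log2 fold changes of 4.42 to 5.61 in AAD from control levels that for Col11a1 were under 1 CPM, and Col11a1 rose by 2.90 in FeNonAD (adjusted p = 0.0133). The FeNonAD libraries ranged from 0.244 to 26.9 CPM for Col11a1, with a median of 0.609 CPM beside 0.506 CPM in FeCon. Without FeNonAD8 the value of Col11a1 in FeNonAD was 0.59 (adjusted p = 0.661), and Col1a2 no longer passed there either (adjusted p = 0.0559). Cartilage markers were higher in 4 of 8 in MaAAD and 5 of 8 in FeAAD, and Col2a1 is one of them. In FeNonAD the substrates Eln and Col1a1 passed and no lysyl oxidase did, a difference that was not itself tested.

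**Figure D5:**
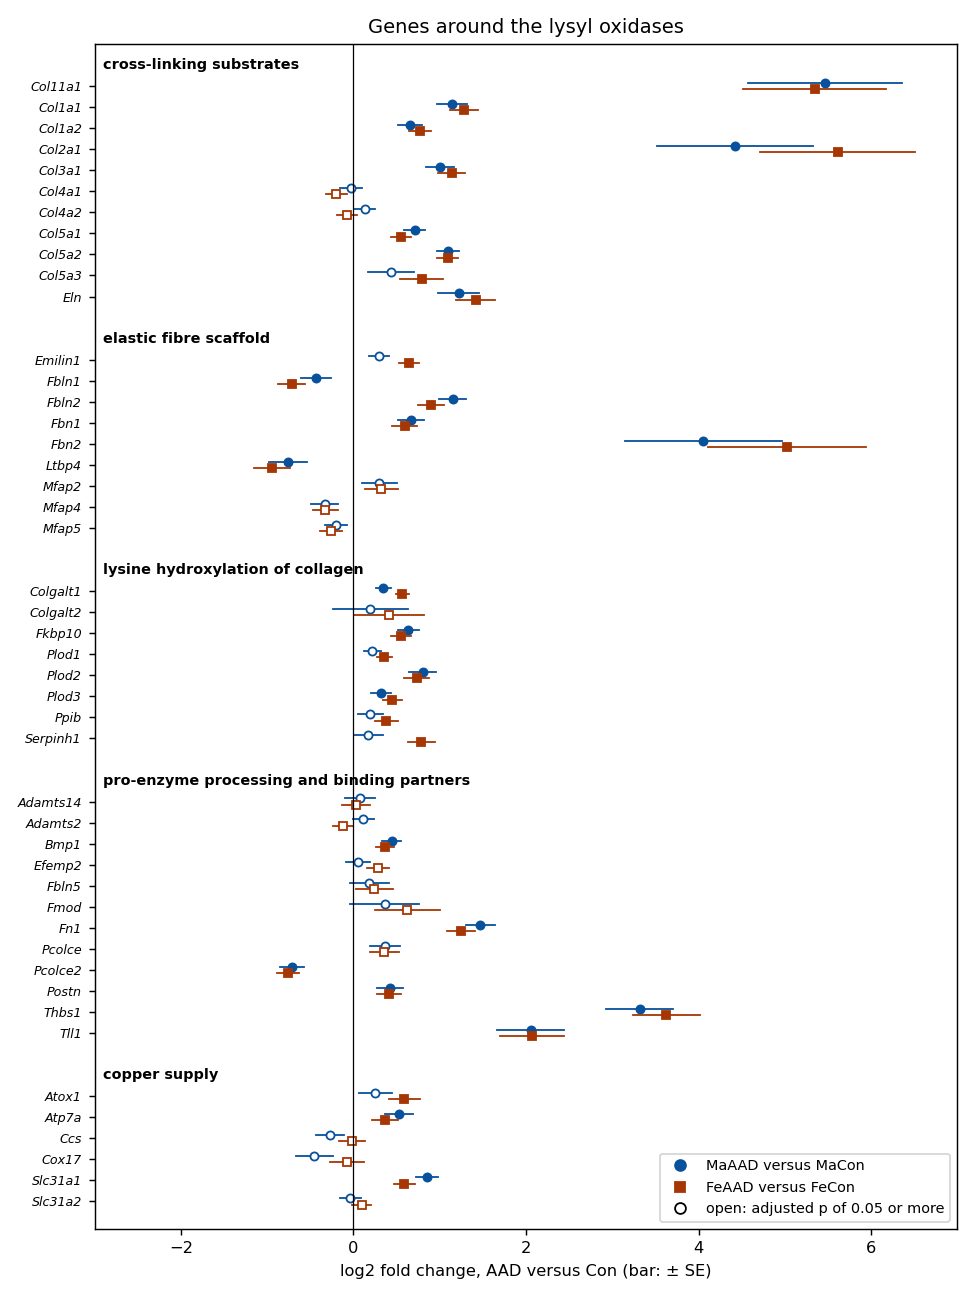
Log2 fold change of AAD against Con (points, ± SE) for the tested genes of 5 lists, in males (circles) and females (squares); filled symbols have an adjusted p under 0.05. Most collagens and Eln lie to the right of 0, the elastic fibre scaffold is mixed, and Thbs1 and Tll1 lead the processing list.

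Of the 12 tested genes for pro-enzyme processing and binding partners, 5 were higher and 1 lower in both MaAAD and FeAAD. Thbs1, for the matrix protein thrombospondin 1, rose by 3.32 in MaAAD and 3.62 in FeAAD, from mean levels of 75.5 ± 29.9 and 92.9 ± 36.9 CPM in the controls, and Fn1, for fibronectin, by 1.47 and 1.25. Bmp1 and Tll1, proteases that cleave the pro-enzyme, were among them. Their log2 fold changes were 0.44 and 0.37 for Bmp1 (adjusted p = 0.00152 and 0.00377) and 2.05 and 2.07 for Tll1. Tll1 was low throughout, at 0.765 to 4.23 CPM in FeAAD. The proteases Adamts2 and Adamts14 of the same list did not pass in AAD of either sex. Pcolce2, for a protein that enhances procollagen cleavage, fell by 0.71 and 0.76. Fn1 was also higher in MaNonAD (1.07, adjusted p = 0.00162) and FeNonAD (0.80, adjusted p = 0.000787), and Thbs1 in FeNonAD (1.16, adjusted p = 0.0271). The call of Fn1 in MaNonAD was lost without MaNonAD1 (0.83, adjusted p = 0.134), and that of Thbs1 in FeNonAD without FeNonAD8 (0.68, adjusted p = 0.194) or FeNonAD6 (adjusted p = 0.0517). The call of Postn was lost in MaAAD without MaAAD2 or MaAAD6 (adjusted p = 0.124 and 0.0765) and in FeAAD without FeAAD9 (adjusted p = 0.0609). Efemp2, for the fibulin that brings Lox to elastin, did not pass in AAD of either sex (0.05 and 0.29).

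In the elastic fibre scaffold, 3 of 9 genes were higher and 2 lower in MaAAD, and 4 higher and 2 lower in FeAAD. The call of Fbln1 in MaAAD, 1 of the lower genes, was lost without any 1 of 11 libraries (adjusted p 0.0509 to 0.109). Fbln2 rose by 1.15 and 0.90, and Fbn2, a fibrillin of the developing aorta, by 4.06 and 5.03 from control means under 1 CPM. Ltbp4 fell by 0.76 and 0.94. In FeNonAD Fbn2 (2.83) and Emilin1 (0.41) were higher and Fbln1 (-0.46) was lower. The median of Fbn2 was 0.1285 CPM in FeNonAD and 0.1372 in FeCon, and without FeNonAD8, the highest at 6.943 CPM, its log2 fold change was 0.03313 (adjusted p = 0.987). The call of Fbln1 in FeNonAD was lost without any 1 of 13 libraries (adjusted p 0.0506 to 0.0923). Of the 8 genes for lysine hydroxylation of collagen, the step before cross-linking, 4 were higher in MaAAD, 7 in FeAAD and 2 in FeNonAD, and none was lower. Plod2, the telopeptide lysyl hydroxylase, rose by 0.80 in MaAAD, 0.73 in FeAAD and 0.50 in FeNonAD, Fkbp10 by 0.64 in MaAAD, and Serpinh1, a collagen chaperone, by 0.79 in FeAAD. Colgalt1 rose by 0.35, 0.57 and 0.30 in the same groups. The call of Plod3 in MaAAD was lost without any 1 of 4 libraries (adjusted p 0.0524 to 0.146), and that of Ppib in FeAAD without FeAAD5 (adjusted p = 0.112). Without FeNonAD8 Plod2 did not pass in FeNonAD (0.44, adjusted p = 0.0518).

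Copper supply genes were higher in 2 of 6 in MaAAD (Slc31a1, the copper importer, by 0.85, and Atp7a, the pump that loads secreted copper enzymes, by 0.53) and 3 of 6 in FeAAD (Slc31a1 by 0.59, Atox1 by 0.59 and Atp7a by 0.36), where 18.9% and 23.8% of all genes were higher, so that in a list of 6 these counts are not set apart from all genes. In FeAAD Atox1 did not pass without FeAAD5 (0.35, adjusted p = 0.0671), nor Atp7a without any 1 of 9 libraries (adjusted p 0.0514 to 0.105). Amine oxidases outside the family were mixed, with 2 of 7 higher and 3 lower in each sex. Il4i1, an amino acid oxidase of immune cells, rose by 2.30 and 2.58 from control means of 0.318 and 0.282 CPM. Its levels in FeAAD ranged from 0.186 to 7.81 CPM, with a median of 1.08. Aoc3, the semicarbazide-sensitive amine oxidase of smooth muscle and endothelium, fell by 0.66 and 0.63. Aoc2 fell by 0.65 in MaAAD and by 0.46 in FeNonAD, and Smox rose by 0.54 in FeAAD. The call of Maob in MaAAD was lost without any 1 of 3 libraries (adjusted p 0.0584 to 0.0871). That of Aoc2 in FeNonAD was lost without any 1 of 10 libraries (adjusted p 0.0521 to 0.102). Of 6 genes taken as inducers of lysyl oxidases, 2 were higher and 1 lower in each sex. Tgfb1 rose by 0.85 and 0.51 and Hif1a by 0.64 and 0.65, whereas Tgfb3 fell by 0.77 in MaAAD and Epas1 by 0.65 in FeAAD.

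In FeAAD against FeNonAD, where 13.2% of all genes were higher, the substrates were higher in 5 of 11 (Col2a1 by 4.25, Col11a1 by 2.44 and Col1a1 by 0.64), lysine hydroxylation in 5 of 8 (Serpinh1 by 0.48, Fkbp10 by 0.44 and Plod3 by 0.36) and the scaffold in 3 of 9 (Fbn2 by 2.19, Fbln2 by 0.78 and Fbn1 by 0.42). Thbs1 and Tll1 rose by 2.47 and 1.33 and Pcolce2 fell by 0.52. Slc31a1 rose by 0.46, Il4i1 by 1.68, Smox by 0.43 and Tgfb1 by 0.59, and Aoc3 fell by 0.55. Many of these calls depended on single libraries. Those of Col11a1, Col3a1, Fbn2, Fbn1, Smox, Il4i1 and 4 of the 5 hydroxylation genes (Serpinh1, Plod3, Plod1 and Colgalt1) were each lost when 1 library was left out, with Col11a1 at 1.72 (adjusted p = 0.0891) without FeAAD6, and Il4i1 at 0.85 (adjusted p = 0.321) and Smox at 0.28 (adjusted p = 0.169) without FeAAD5. In MaAAD against MaNonAD no gene of these lists passed, in a comparison where 59 of all genes did.

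Cell markers moved with the same groups, and their part in the levels of the enzymes was not tested. All 8 smooth muscle markers were lower in MaAAD and in FeAAD than in the controls, with summed levels of 11830 to 29450 CPM in MaAAD, 27850 to 60210 in MaCon, 13940 to 31890 in FeAAD and 30530 to 52200 in FeCon. All 8 macrophage markers were higher, with sums of 573.3 to 2100 CPM in MaAAD, 135.6 to 358.0 in MaCon, 424.0 to 2248 in FeAAD and 158.5 to 393.9 in FeCon. All 8 cycling markers were higher too, and 5 of 7 neutrophil markers were higher and 1 lower in MaAAD and 6 of 7 higher in FeAAD, with a median sum of 22.3 CPM in MaAAD and 11.9 in FeAAD. Among these lists the neutrophil marker Ly6g was at 0 in all FeNonAD libraries. Fibroblast markers, of the cell type that together with smooth muscle makes most of the matrix, were higher in 2 of 8 and lower in 1 of 8 in MaAAD, and higher in 1 and lower in 3 in FeAAD. Endothelial markers were higher in 2 of 8 in MaAAD, and 1 of 8 was higher and 1 lower in FeAAD. Heart muscle markers were lower in 1 of 10 in MaAAD and 6 of 10 in FeAAD (median log2 fold change -1.25). Skeletal muscle markers were lower in 0 of 6 in MaAAD and 2 of 6 in FeAAD. In NonAD, 0 of 8 smooth muscle markers were lower in males and 2 of 8 in females, and 0 macrophage markers were higher in either sex. Cycling markers were higher in 6 of 8 in FeNonAD (median log2 fold change 1.53) and in 0 of 8 in MaNonAD (1.3). B cell markers were higher in 5 of 7 in MaNonAD, with a highest sum of 23.5 CPM, in 1 of 7 in FeNonAD, 4 of 7 in MaAAD and 7 of 7 in FeAAD. With MaAAD1, MaAAD7, FeAAD5 and FeNonAD8 left out, the 4 members of MaAAD and the 3 of FeAAD that passed against Con did so again, also with FeAAD9 left out besides.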

How the data were processed

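Strand-specific mRNA of the thoracic aorta was measured in 48 mice, 1 library each, in 6 groups taken from the sample titles. The authors deposited expected counts per gene (estimated counts, 4.99% of values not whole), and the submitters' processing notes name Bowtie2, RSEM 1.3.1 and GRCm39. The deposited counts were rounded to whole numbers. Genes were filtered by filterByExpr and scaled by TMM (factors 0.874 to 1.08), and all 48 libraries were fitted together with a mean for each group by edgeR's quasi-likelihood test with robust estimation (edgeR 4.0.16, R 4.3.3). Adjusted p-values are Benjamini-Hochberg values over 14431 genes, and a gene was called at an adjusted p under 0.05. DESeq2 1.42.0, other scalings and fits, and omission of each library were alternatives. Levels are TMM-scaled CPM (counts relative to the scaled library total). Length scaling used the union of GENCODE M21 exons, a GRCm38 annotation, so it is approximate, and no coordinates are given. Member correlations used 100000 resamples (numpy 2.4.6). The scripts were tested on simulated data.

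All members are named. From each list of pathway genes, up to 3 called genes with the largest absolute change per within-sex comparison are named, with counts of the rest; Bmp1, Efemp2, genes named for losing a call with 1 library left out, and values that did not pass were added after their values were seen. The members and lists were chosen with earlier results of these data known. The labels place each library in a separate mouse. Intervals cover the spread between libraries, and expected counts carry an assignment error that is not included. Replicate numbers in the titles were not taken to pair mice.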

Additional observations from a re-analysis of the deposited data

Results flagged for a closer look

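In 30 groups of values (5 members in 6 groups), 3 held a library far from the others by Dixon's criterion, where about 1 in 20 is flagged by chance. MaCon5 had the lowest Lox of MaCon, 151 CPM against 345.1 to 505.3 CPM in the others, and also had 1.62 CPM of Arntl against 27.2 to 63.1 CPM. FeAAD2 had the highest Loxl2 of FeAAD, at 262 CPM. FeNonAD8 had the highest Loxl3 of FeNonAD, at 200 CPM, with the highest macrophage marker sum of that group (672.3 CPM).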

How the results depend on the processing

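Every call of a member for AAD against Con was kept under each alternative and with each library left out, apart from Loxl3 in females, and in the within-sex comparisons 468 of 480 log2 fold changes of members with 1 library left out and 284 of 300 under other settings kept their direction and side of the threshold or were uncalled in both, as did 1046 of 1060 and 341 of 350 in the other comparisons; no called value changed sign. Loxl3 in FeAAD against FeCon passed with upper-quartile scaling (0.355, adjusted p 0.0156) and with the Arntl covariate (0.332), and ranged from 0.221 to 0.328 with 1 library left out. The replicate numbers do not pair the mice (mean correlation of same-numbered deviations -0.0661 to 0.0686), and with the replicate block Loxl3 in FeAAD against FeCon was 0.291 (adjusted p 0.0476), the genes called for MaAAD against MaNonAD were 0, and no other call of a member within a sex changed. In fits of the compared groups only, Loxl4 in MaNonAD was 0.76 (1 member called), and Lox in FeAAD against FeNonAD was 0.872 and not called. The genes called in these fits were 274 for MaNonAD against MaCon, 0 for MaAAD against MaNonAD and 1257 for FeAAD against FeNonAD. The reason for these changes was not tested.

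The genes called for MaAAD against MaNonAD, 59 in all libraries, were 781 with DESeq2, 212 with its size factors, 338 with upper-quartile scaling, 117 without robust estimation, 0 without the filter and 0 to 1342 with 1 library left out, and those for MaNonAD against MaCon, 90, were 164 with DESeq2 and 16 to 131 with 1 library left out. The cause was not tested. With 1 library left out the genes called for FeAAD against FeNonAD were 1492 to 3209, Loxl2 there was 0.406 to 0.562, Loxl2 and Loxl4 in MaAAD against MaNonAD were 0.477 to 0.715 and 0.514 to 0.77 (0 to 2 members called), Loxl4 in MaNonAD was 0.594 to 0.872 (0 to 1 members) and Loxl3 in FeNonAD was -0.377 to -0.214 (0 to 1 members). Without MaAAD1 the sex difference in the AAD response of Loxl4 was 0.814 and passed (adjusted p 0.049982).

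The following alternatives were chosen after seeing the data. With MaAAD1, MaAAD7, FeAAD5 and FeNonAD8 left out, Loxl4 in MaNonAD (0.751; 1 member, 303 genes), Loxl3 in FeNonAD (-0.377; 1 member), Loxl2 in MaAAD against MaNonAD (0.753; 1 member, 1061 genes) and Loxl1 in FeAAD against FeNonAD (0.33, adjusted p 0.0489) passed. With FeAAD9 left out as well, Loxl4 in MaNonAD (0.775; 1 member, 462 genes), Loxl3 in FeNonAD (-0.374; 1 member), and Loxl2 and Loxl4 in MaAAD against MaNonAD (0.745 and 0.667; 2 members, 1370 genes) passed. With the Arntl covariate, which was picked for following Lox so that its p-values for Lox are no test, Lox crossed the threshold in MaNonAD (1.07, 1 member, 276 genes), in FeNonAD (0.523, 1 member) and in MaAAD against MaNonAD (0.872, 1 member, 431 genes). Lox also crossed it for NonAD against Con averaged over the sexes (0.796) and for MaCon against FeCon (-0.485). Loxl2 crossed it in that average (0.423, adjusted p 0.03) and for MaCon against FeCon (-0.431, adjusted p 0.0402).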
